A study of Mus musculus with 24 samples.

Results

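Expression of 34 genes of fuel oxidation was described in the heart and lung of mice whose heart muscle carries an inhibitor of the transcription factor CREB. The genes were chosen by symbol for their place in metabolism, with earlier results of these data known. They cover pyruvate entry into mitochondria, the tricarboxylic acid (TCA) cycle, the malate-aspartate shuttle, the use of ketone bodies, and branched-chain amino acid breakdown. Of the 34 genes, 33 had a probe set with 1 gene symbol among the 18193 genes measured, and Mpc2 was not analysed here. All 33 exceeded a log2 value of 4 in at least 3 arrays of each tissue, so that 33 of 9962 genes tested in heart and 33 of 11600 genes tested in lung belong to the group. Bdh1 in lung came nearest to that limit, at 3.82 to 5.11, with 10 of 12 lung arrays above 4.

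RNA from the left ventricle and the lung was hybridised to Affymetrix arrays, with 24 arrays in 8 groups of 3. All animals were CD-1 mice of 20 weeks, labelled as male, and either wild type or transgenic for a dominant negative CREB1 under the heart-muscle-specific promoter of alpha myosin heavy chain (dnCREB). Each received phosphate-buffered saline (PBS) or 20 mg/kg of particulate matter (PM) with a size of 1.9 µm, and for PM the label gives a harvest of lung after 36 h, which is also written for the heart samples. The 4 groups of each tissue were thus wild type with PBS, wild type with PM, dnCREB with PBS and dnCREB with PM. The series title presents the mice as a model of cardiac failure, the route of exposure is not given, and the labels do not state how many animals gave each sample or whether heart and lung of one number came from 1 mouse. P-values therefore measure the spread between these samples.

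The heart meets most of its need for ATP by oxidation in mitochondria. Pyruvate from glucose and lactate is carried into the matrix and turned into acetyl-CoA by the pyruvate dehydrogenase complex, ketone bodies are turned into acetyl-CoA by another short route, and the TCA cycle oxidises the acetyl group to CO2 and passes the electrons to the respiratory chain. Leucine, isoleucine and valine are transaminated and then committed to oxidation by the branched-chain ketoacid dehydrogenase complex, whose products reach acetyl-CoA or, through propionyl-CoA, the succinyl-CoA of the cycle.

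Some properties of the arrays touch the results below. The 12 cardiomyocyte markers stood at a mean log2 level of 15.77 to 16.18 in every heart, and the markers of lung epithelium at 13.17 to 13.80 in every lung. Genes of the sex chromosomes went against the one sex named in the labels: all 6 wild-type hearts had high Xist, which is expressed from the inactive X chromosome, at 12.05 to 13.05, whereas 5 dnCREB hearts had low Xist and high levels of the Y-linked gene Eif2s3y, at 10.26 to 11.29. The heart labelled dnCREB PM replicate 3 had Xist at 13.71, as the wild-type hearts did. Genotype and sex-chromosome class are therefore nearly the same split in heart, and the counts and step medians are also given for that array alone. In lung, 5 arrays (dnCREB PBS replicates 1 and 3, dnCREB PM replicate 3, and replicates 1 and 2 of wild-type PM) had a mean level of fast skeletal muscle markers of 9.55 to 10.15, against 3.29 to 4.97 in the other 7.

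In the dnCREB left ventricle, nearly the whole group was lower than in wild type. With the genotype difference averaged over PBS and PM, 29 of 33 members were called lower and 0 higher (limma, adjusted p under 0.05), where 13.6% of all genes tested were called lower and 22.3% higher. The median log2 difference of the members was -0.51, against 0.05 over all genes tested. By step, the median was -0.37 for 6 genes of pyruvate entry (5 lower), -0.49 for 12 genes of the TCA cycle (12 lower), -0.42 for 3 genes of the malate-aspartate shuttle (2 lower), -0.51 for 3 genes of ketone use (2 lower) and -1.13 for 9 genes of branched-chain breakdown (8 lower). The 4 members not called were Bcat2, Mdh1, Oxct1 and Pdhx. These are bulk samples, in which fewer heart muscle cells and less RNA per cell cannot be told apart.

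**Figure D1:**
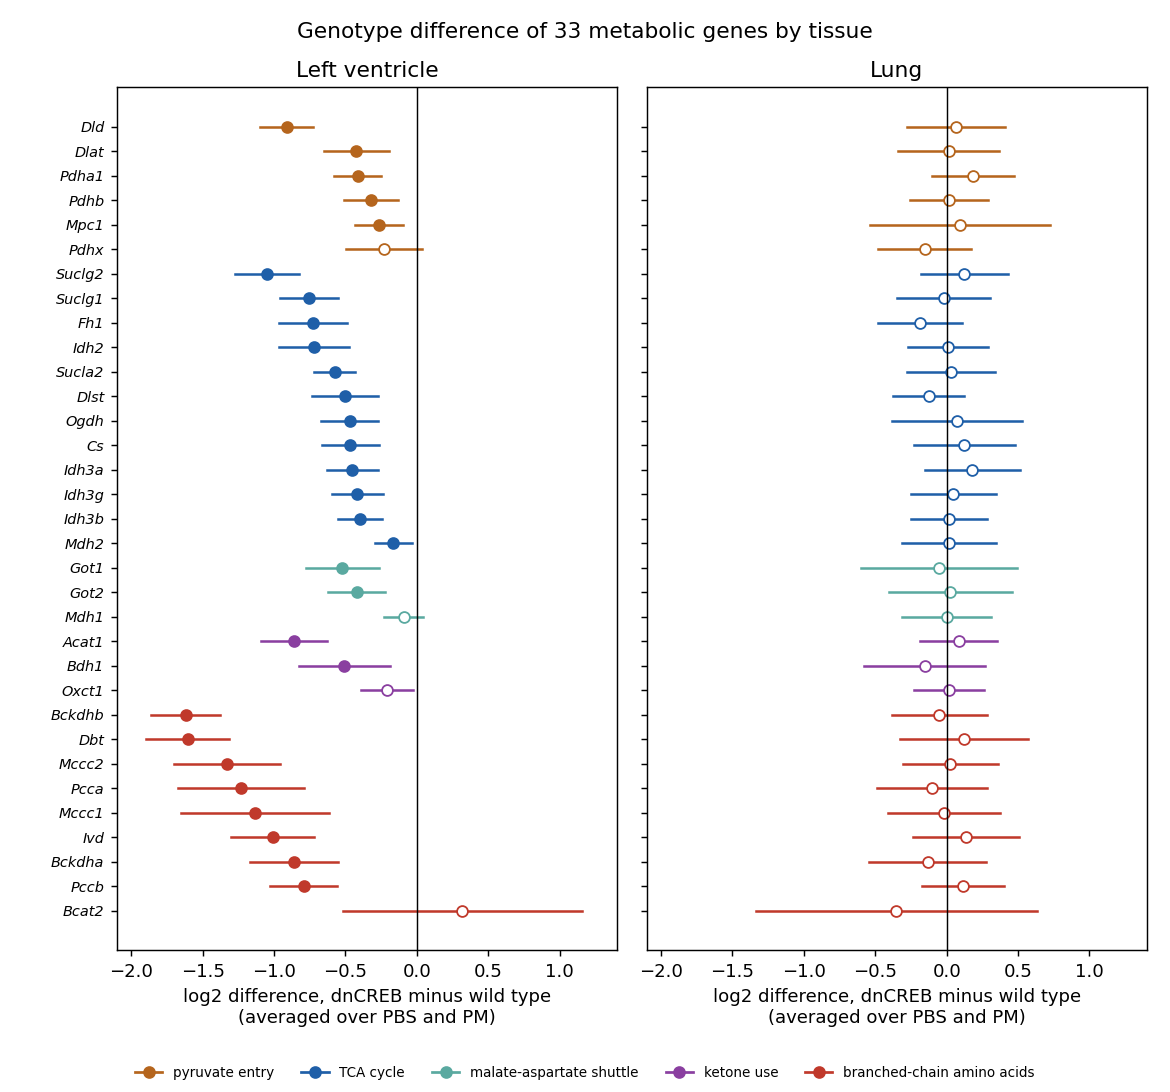
Log2 difference between dnCREB and wild type, averaged over PBS and PM, for each of 33 genes in left ventricle (left) and lung (right). Points are limma estimates from 12 arrays per tissue, lines their 95% confidence intervals, filled points have an adjusted p under 0.05, and colours mark the step of metabolism. In heart 29 points are filled and all of these lie below 0, while in lung 0 are filled.

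Under PBS alone, 19 of 33 members were called lower and 0 higher, against 5.6% of all genes called lower, with a median of -0.47 (all genes 0.09). Under PM, 25 were called lower and 0 higher, against 9.13% of all genes, with a median of -0.65 (all genes 0.02). The count under PBS was 11 without dnCREB PBS replicate 3 and 12 without wild-type PBS replicate 2. The calls under PBS and PM shared 18 genes. Got1 was called under PBS only, and Bdh1, Cs, Dlat, Dlst, Idh3b, Mccc1 and Pdha1 under PM only, but the interaction of genotype and PM called 0 members and 0.0% of all genes, so no gene was shown to differ in its genotype change between PBS and PM. At an unadjusted p under 0.05 the interaction held 2 members, Sucla2 (-0.34) and Mccc1 (-1.15), which is 6.06% of the members beside 3.62% of all genes. The 3 dnCREB hearts lay wholly below the 3 wild-type hearts in 26 members under PBS, against 16.9% of all genes, and in 30 under PM, against 16.2%. Across all 6 hearts of each genotype, the dnCREB values lay wholly below the wild-type values in 24 members, against 8.69% of all genes.

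The single dnCREB heart of the same sex-chromosome class as the wild-type hearts, PM replicate 3, lay below all 6 wild-type hearts in 33 of 33 members, where 32.4% of all genes tested did so. Its median difference from the wild-type mean was -0.66, and by step -0.41 for pyruvate entry, -0.58 for the TCA cycle, -0.41 for the shuttle, -0.80 for ketone use and -1.37 for branched-chain breakdown. The other 5 dnCREB hearts lay below all 6 wild-type hearts in 27 to 32 members, where 20.6% to 28.3% of all genes tested did so. With the sex-chromosome class added to the fit, where the genotype estimate rests on that 1 heart, 12 members were called lower over PBS and PM averaged (3.63% of all genes), 4 under PBS (1.09%) and 14 under PM (4.55%). The medians were -0.65, -0.60 and -0.68. No dnCREB PBS heart had the wild-type class, so the PBS values take the class difference from the dnCREB PM hearts. Whether it is the same under PBS was not tested. Pdha1 and Idh3g, which lie on the X chromosome, stood at 13.16 and 14.44 in that heart, against wild-type hearts from 13.52 to 13.75 and from 14.83 to 15.10. The 12 members called with the class in the fit were Bckdhb, Dbt, Mccc2, Bckdha, Ivd, Pccb, Suclg2, Suclg1, Sucla2, Idh2, Dld and Acat1.

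The promoters of the members were searched for the letters CREB binds, and 3 stretches are shown because they hold or lack them. Windows from 250 bases before to 50 after the annotated start were found for 30 of the 33 members (RefSeq, GRCm38.p6), and each motif was searched on both strands. The full CRE, TGACGTCA, was in the windows of 2 of 30 members, Ogdh and Mdh2 (6.7%), and in 2.03% of 27025 genes. Its 5-letter part TGACG, which every full CRE contains, was in 12 of 30 (40.0%) and in 23.05% of all genes. Below are the 150 bases before the start of Ogdh (chr11:6291447-6291596, plus strand), Mdh2 (chr5:135778499-135778648, plus strand) and Bckdhb (chr9:83924987-83925136, plus strand), with capitals for the full CRE.
Ogdh: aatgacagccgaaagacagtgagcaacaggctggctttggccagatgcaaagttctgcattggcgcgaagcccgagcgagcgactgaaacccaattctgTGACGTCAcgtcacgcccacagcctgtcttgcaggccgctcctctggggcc
Mdh2: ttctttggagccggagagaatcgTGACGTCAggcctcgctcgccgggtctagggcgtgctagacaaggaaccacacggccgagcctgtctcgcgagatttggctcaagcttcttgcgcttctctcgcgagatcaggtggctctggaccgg
Bckdhb: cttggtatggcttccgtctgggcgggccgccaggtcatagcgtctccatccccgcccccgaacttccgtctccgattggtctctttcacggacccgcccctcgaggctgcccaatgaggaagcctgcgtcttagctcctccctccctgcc
The CRE begins at -51 from the start in Ogdh and at -127 in Mdh2, and the stretch of Bckdhb holds neither the full CRE nor TGACG. Ogdh fell by 0.47, Mdh2 by 0.17 and Bckdhb by 1.62 in the averaged comparison. Ogdh was also called lower with another probe set, at -2.05 (limma adjusted p = 0.00939), and Mdh2 with another at -0.34. The sizes for these 2 genes therefore depend on the probe set. An element of the estrogen-related receptors, TCAAGGTCA, was in 0 of 30 members (0.47% of all genes). The Sp1 box GGGCGG was in 17 of 30 (56.7%, against 38.2%) and CCAAT in 17 of 30 (56.7%, against 41.06%). In these shares, all genes means the 27025 genes with a window, which were not limited to genes measured or tested on the arrays. The members are all genes that passed the filter, so the shares are not matched for expression. These matches are letters in a window and were not tested as sites.

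Pyruvate entry showed the smallest median of the 5 steps. Dld encodes dihydrolipoamide dehydrogenase, the E3 subunit shared by the pyruvate, 2-oxoglutarate and branched-chain complexes. Its log2 values by array were 13.98, 14.11 and 13.99 in wild-type PBS, 14.15, 14.03 and 13.83 in wild-type PM, 13.38, 13.06 and 13.18 in dnCREB PBS, and 13.02, 12.94 and 13.05 in dnCREB PM. All 6 dnCREB hearts lay below all 6 wild-type hearts, and the averaged difference was -0.91 ± 0.08 (SE; limma adjusted p = 3.6e-05). The subunits that only the pyruvate complex uses had smaller differences with the probe sets used, an order that was not tested. Another set of Dlat was called lower at -0.94 and another of Pdha1 at -0.83, so that order depends on the probe set.

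Dlat, the E2 subunit, read 11.59, 12.01 and 11.94 in wild-type PBS, 11.93, 12.13 and 11.77 in wild-type PM, 11.43, 11.45 and 11.66 in dnCREB PBS, and 11.48, 11.53 and 11.26 in dnCREB PM. The genotypes overlapped through 1 wild-type and 1 dnCREB heart, both of the PBS groups, and the averaged difference was -0.42 ± 0.10 (SE, adjusted p = 0.0098). Pdha1, the catalytic E1 alpha subunit, read 13.55, 13.69 and 13.52 in wild-type PBS, 13.70, 13.75 and 13.57 in wild-type PM, 13.39, 13.17 and 13.25 in dnCREB PBS, and 13.26, 13.07 and 13.16 in dnCREB PM. Its genotypes did not overlap, at -0.41 ± 0.07 (SE, adjusted p = 0.0018). Pdhb, the E1 beta subunit, fell by 0.32 (adjusted p = 0.0148) and the carrier subunit Mpc1 by 0.27 (adjusted p = 0.02), both in the averaged comparison only. Pdhx, which holds E3 to the complex, differed by -0.23 and was not called (adjusted p = 0.153).

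In the TCA cycle all 12 members were called lower in the averaged comparison, with 8 called under PBS and 11 under PM. The succinyl-CoA ligase subunits make succinate from succinyl-CoA with a gain of GTP or ATP. They included the 2 largest differences of the cycle with the probe sets used. Suclg2, the GTP-forming beta subunit, read 13.74, 13.68 and 13.44 in wild-type PBS, 13.68, 13.73 and 13.75 in wild-type PM, 12.79, 12.61 and 12.37 in dnCREB PBS, and 12.57, 12.88 and 12.49 in dnCREB PM. Every dnCREB heart was below every wild-type heart, and the averaged difference was -1.05 ± 0.10 (SE; limma adjusted p = 5.0e-05). The shared alpha subunit Suclg1 read 13.20, 13.68 and 13.32 in wild-type PBS, 13.49, 13.45 and 13.35 in wild-type PM, 12.73, 12.64 and 12.66 in dnCREB PBS, and 12.58, 12.79 and 12.57 in dnCREB PM, a difference of -0.76 ± 0.09 (SE, adjusted p = 2.0e-04) without overlap. The ATP-forming beta subunit Sucla2 fell by 0.58 (adjusted p = 1.3e-04).

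Fumarase, Fh1, turns fumarate into malate. It read 13.98, 14.35 and 14.12 in wild-type PBS, 14.24, 14.19 and 14.12 in wild-type PM, 13.69, 13.51 and 13.20 in dnCREB PBS, and 13.22, 13.55 and 13.48 in dnCREB PM. No dnCREB heart reached a wild-type level, and the difference was -0.73 ± 0.11 (SE, adjusted p = 6.1e-04). The NADP-linked isocitrate dehydrogenase Idh2 fell by 0.72 (adjusted p = 7.2e-04). With the probe sets used, the NAD-linked subunits Idh3a (0.45), Idh3g (0.42) and Idh3b (0.40) fell less, although that order was not tested. Other sets of Idh3a were called lower at -0.94 and -0.83. Other sets of Idh3b gave -0.90, called lower, and 0.29, not called, so the order depends on the probe set. The 2-oxoglutarate dehydrogenase subunits Dlst and Ogdh fell by 0.50 and 0.47, and citrate synthase, Cs, which joins acetyl-CoA to oxaloacetate, fell by 0.47. Mitochondrial malate dehydrogenase, Mdh2, had the smallest call of the cycle, at -0.17 ± 0.06 (SE, adjusted p = 0.048), and its genotypes overlapped. The call of Mdh2 was kept in 7 of 23 alternative settings and left-out arrays. Another probe set of Mdh2 was called lower at -0.34, so its size depends on the probe set.

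The malate-aspartate shuttle carries reducing equivalents from cytosolic NADH into mitochondria. The cytosolic aspartate aminotransferase Got1 read 14.23, 14.34 and 14.15 in wild-type PBS, 14.13, 14.24 and 13.86 in wild-type PM, 13.64, 13.70 and 13.43 in dnCREB PBS, and 14.03, 13.49 and 13.53 in dnCREB PM. Only dnCREB PM replicate 1 reached into the wild-type range, and the averaged difference was -0.52 ± 0.12 (SE; limma adjusted p = 0.006). The mitochondrial enzyme Got2 read 13.17, 13.48 and 13.27 in wild-type PBS, 13.36, 13.44 and 13.27 in wild-type PM, 13.11, 12.90 and 12.68 in dnCREB PBS, and 12.92, 12.92 and 12.92 in dnCREB PM. Its genotypes did not overlap, at -0.42 ± 0.09 (SE, adjusted p = 0.0049). Cytosolic malate dehydrogenase, Mdh1, differed by -0.09 (95% interval -0.23 to 0.05) and was not called (adjusted p = 0.267). Another probe set of Mdh1 gave -1.46, the lowest of its 5 sets above the filter, of which 2 were called lower, so the value depends on the probe set.

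Of the ketone genes, Acat1 moved most with the probe set used for each gene. It encodes the mitochondrial acetoacetyl-CoA thiolase, which splits acetoacetyl-CoA in ketone use and also acts in isoleucine breakdown. Its values were 13.72, 13.74 and 13.63 in wild-type PBS, 13.78, 13.79 and 13.50 in wild-type PM, 12.9976, 12.9874 and 12.5994 in dnCREB PBS, and 12.61, 13.01 and 12.81 in dnCREB PM. The genotypes did not overlap, and the averaged difference was -0.86 ± 0.10 (SE; limma adjusted p = 1.9e-04). The 3 probe sets of Acat1 above the filter were all called lower, at -0.99 to -0.83.

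Bdh1, the dehydrogenase that turns 3-hydroxybutyrate into acetoacetate, read 12.90, 12.93 and 12.86 in wild-type PBS, 12.99, 13.35 and 12.77 in wild-type PM, 12.64, 12.84 and 12.24 in dnCREB PBS, and 12.17, 12.70 and 12.17 in dnCREB PM. A single dnCREB PBS heart lay above the lowest wild-type heart, and the difference was -0.51 ± 0.14 (SE, adjusted p = 0.0196). Another probe set of Bdh1 was called lower at -1.10, so the order of Acat1 and Bdh1 depends on the probe set. Oxct1 is the CoA transferase that commits acetoacetate to oxidation in tissues outside the liver. It differed by -0.21 (95% interval -0.39 to -0.03) and missed the threshold (adjusted p = 0.069). Of its 4 probe sets above the filter, 1 was called lower, at -0.38, so the call depends on the probe set.

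The breakdown of branched-chain amino acids held the 5 largest differences of the 33 genes, with the probe set used for each gene. Bckdhb and Dbt encode the E1 beta and E2 subunits of the branched-chain ketoacid dehydrogenase. Bckdhb read 12.26, 12.51 and 12.18 in wild-type PBS, 12.78, 12.41 and 12.44 in wild-type PM, 10.90, 10.77 and 10.74 in dnCREB PBS, and 11.01, 10.89 and 10.55 in dnCREB PM. The highest dnCREB heart was more than a log2 unit below the lowest wild-type heart, and the averaged difference was -1.62 ± 0.11 (SE; limma adjusted p = 7.1e-06), a level of 32.6% of wild type. Dbt read 12.09, 12.43 and 12.25 in wild-type PBS, 12.29, 12.29 and 12.52 in wild-type PM, 11.17, 10.86 and 10.35 in dnCREB PBS, and 10.61, 10.58 and 10.68 in dnCREB PM. It also showed no overlap, at -1.60 ± 0.13 (SE, adjusted p = 1.9e-05). The E1 alpha subunit Bckdha fell by 0.86 (adjusted p = 0.001).

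Downstream of the complex, Mccc2 and Mccc1 encode the beta and alpha subunits of methylcrotonyl-CoA carboxylase in the leucine route. Mccc2 read 10.73, 11.02 and 10.99 in wild-type PBS, 11.36, 10.84 and 11.04 in wild-type PM, 9.76, 9.57 and 10.0005 in dnCREB PBS, and 9.43, 10.10 and 9.14 in dnCREB PM. No dnCREB heart reached the wild-type range, at -1.33 ± 0.17 (SE, adjusted p = 2.2e-04), and another probe set was called lower at -1.46. The remaining set was called too, but its dnCREB means of 3.08 lay under the filter level, so its size is not given. Mccc1 fell by 1.13 (adjusted p = 0.004). It differed by -0.56 under PBS (adjusted p = 0.263), where the genotypes overlapped, and by -1.71 under PM (adjusted p = 0.006), where they did not, and the interaction had an adjusted p of 0.98. Ivd, isovaleryl-CoA dehydrogenase of the same route, fell by 1.01 (adjusted p = 2.7e-04).

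Pcca and Pccb, the subunits of propionyl-CoA carboxylase, through which isoleucine and valine carbon reaches the cycle, fell by 1.23 (adjusted p = 9.9e-04) and 0.79 (adjusted p = 3.4e-04). Bcat2, the mitochondrial aminotransferase of the first step, was the exception. It read 8.11, 8.68 and 8.75 in wild-type PBS, 8.11, 8.58 and 8.53 in wild-type PM, 9.51, 9.51 and 8.08 in dnCREB PBS, and 8.02, 9.82 and 7.74 in dnCREB PM. In dnCREB 3 hearts lay above all wild-type hearts and 3 lay below all of them, and the averaged difference of 0.32 was not called (95% interval -0.52 to 1.16, adjusted p = 0.533).

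**Figure D2:**
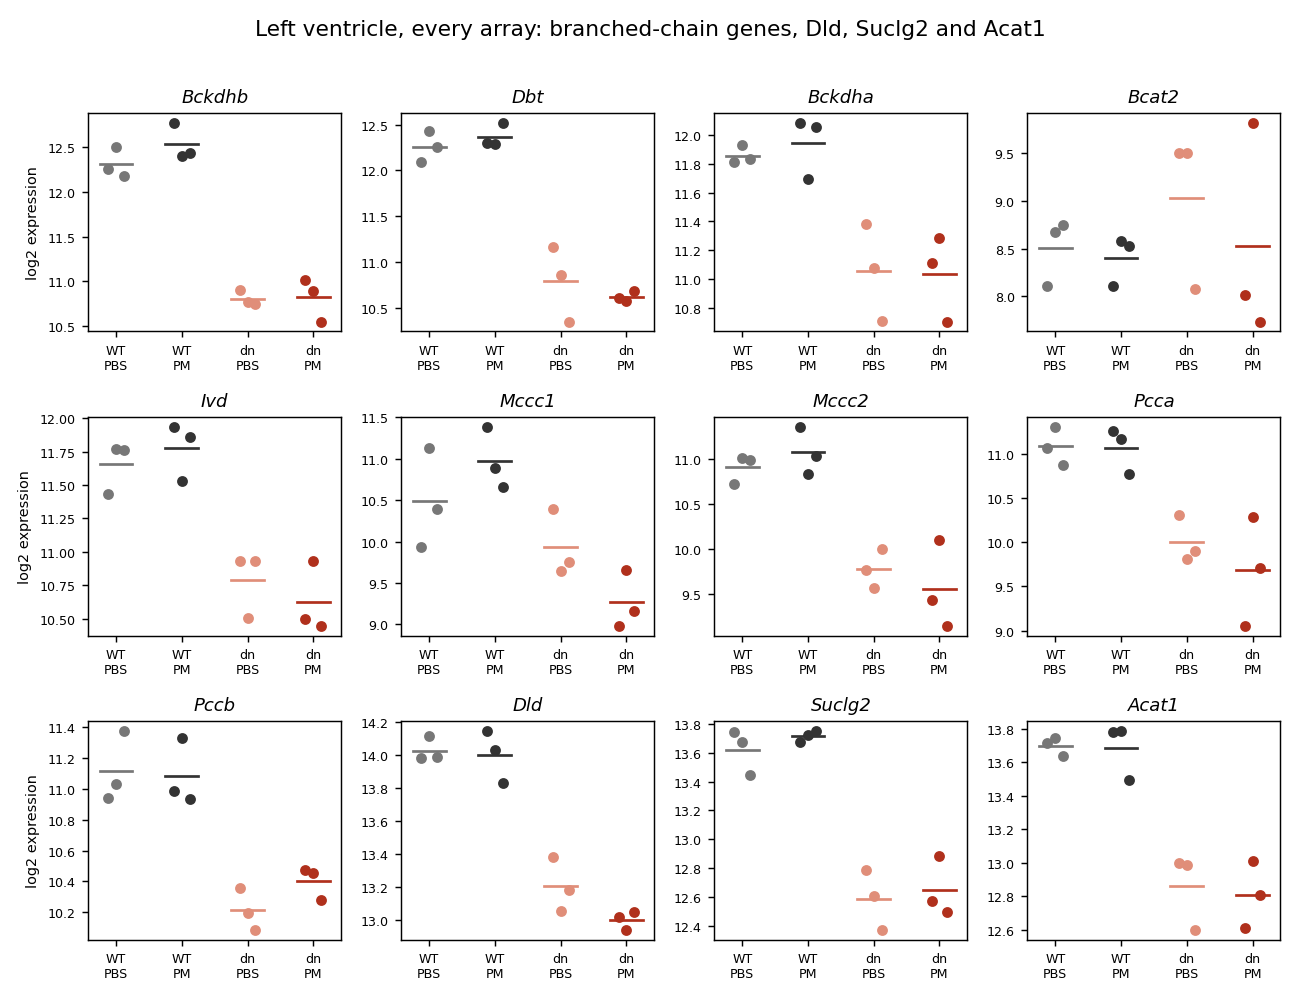
Log2 expression in every left ventricle array for the 9 branched-chain genes and for Dld, Suclg2 and Acat1, with 3 arrays per group as points and the group mean as a line; each panel has its own scale. Wild-type (WT) and dnCREB (dn) points separate in 10 of the 12 panels, and Bcat2 and Mccc1 overlap.

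Where a member had more than 1 probe set above the filter, most of its sets were called lower. This applied to 19 members with 49 probe sets, a count that includes the set used for each gene. Of these sets 40 were called lower, 0 higher and 9 were not called, and in 14 members every set was called lower. Orders of size among members refer to the probe set used for each gene. Members with a higher wild-type heart level tended to have smaller falls. Between that level and the genotype difference Pearson's r was 0.31 and Spearman's rho 0.48 over the 33 members. Without the branched-chain members they were 0.30 and 0.34. The same arrays lie behind each value and probe sets differ in affinity, so that this is a description. The part of signal level in the order of the steps was not tested.

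Related genes that were not chosen as members moved in the same direction in some lists and in both directions in others. Of 13 further genes of branched-chain breakdown tested, 12 were called lower in the averaged comparison and 0 higher (all genes 13.6% and 22.3%). Their median was -0.81, beside 0.05 for all genes. The 4 with the smallest p were Echs1, the short-chain enoyl-CoA hydratase (-0.93, adjusted p = 2.7e-05), Mmut, methylmalonyl-CoA mutase (-1.14, adjusted p = 8.1e-05), Aldh6a1, the dehydrogenase of methylmalonate semialdehyde (-0.97, adjusted p = 1.5e-04), and Hsd17b10 of the isoleucine route (-0.81, adjusted p = 2.0e-04). Slc25a44, the mitochondrial carrier of branched-chain amino acids, differed by 0.05 and was not called.

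Of 11 kinases, phosphatases and lipoylation enzymes that act on the dehydrogenases, 2 were called lower and 1 higher, with a median of -0.28, beside 13.6% of all genes called lower and 22.3% higher. Ppm1k, the phosphatase that activates the branched-chain complex, read 11.12, 11.67 and 11.69 in wild-type PBS, 11.87, 11.31 and 11.88 in wild-type PM, 9.92, 9.32 and 10.33 in dnCREB PBS, and 10.50, 9.48 and 9.83 in dnCREB PM. Its genotypes did not overlap, at -1.69 ± 0.23 (SE; limma adjusted p = 3.3e-04). Bckdk, the kinase that inactivates the same complex, differed by -0.33 and was not called (adjusted p = 0.0696).

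Pdk3, a kinase that inactivates pyruvate dehydrogenase, went the other way. It read 3.75, 3.68 and 3.76 in wild-type PBS, 3.68, 3.72 and 3.75 in wild-type PM, 7.59, 5.17 and 6.66 in dnCREB PBS, and 6.22, 6.30 and 7.72 in dnCREB PM. All 6 wild-type hearts were under the filter level of 4, so the gene was tested only because of the dnCREB hearts, and the fitted difference of 2.89 ± 0.38 (SE, adjusted p = 3.2e-04) gives no bound on a fold. Pdk3 lies on the X chromosome, and its highest value, 7.72, was that of the dnCREB heart with high Xist. The phosphatase Pdp1, which activates pyruvate dehydrogenase, fell by 0.29 (adjusted p = 0.0498).

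Among 18 further genes of the TCA cycle and of anaplerosis, 7 were called lower and 3 higher (all genes 13.6% and 22.3%), with a median of -0.26. The smallest p belonged to Me3, the mitochondrial NADP-linked malic enzyme (-1.10, adjusted p = 2.5e-05), Sdha, the flavoprotein of succinate dehydrogenase (-0.82, adjusted p = 8.5e-05), Slc25a12, an aspartate-glutamate carrier of the malate-aspartate shuttle (-0.65, adjusted p = 1.7e-04), and Slc25a11, the 2-oxoglutarate-malate carrier of that shuttle (-0.61, adjusted p = 0.0012). The 3 genes called higher, named after their values were seen, were Me2, the NAD-linked malic enzyme (1.49, adjusted p = 0.0019), Slc25a1, the citrate carrier (0.92, adjusted p = 0.0016), and Acly, which cleaves citrate in the cytosol (0.61, adjusted p = 0.0363). Of the 2 transporters of ketone bodies and pyruvate tested, Slc16a7 fell by 2.13 (adjusted p = 0.0113), with all 6 dnCREB hearts at 2.77 to 3.38, under the filter level, so that no fold is taken from this fitted value, and Slc16a1 differed by 0.26 and was not called.

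**Figure D3:**
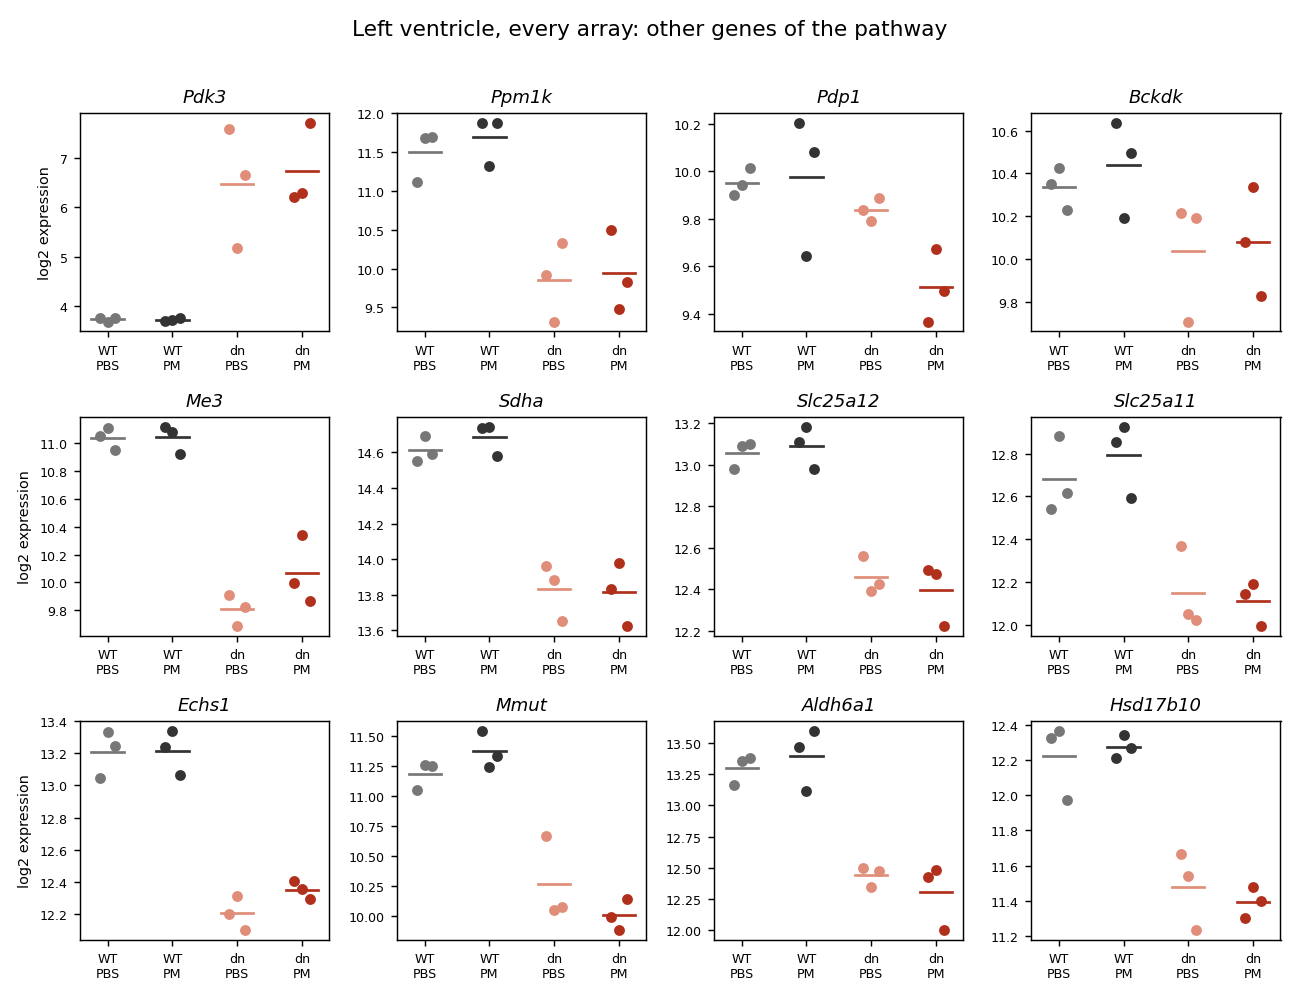
Log2 expression in every left ventricle array for 12 related genes that are not members, with 3 arrays per group as points and the group mean as a line; each panel has its own scale. Pdk3 is higher in all dnCREB (dn) hearts than in all wild-type (WT) hearts, Ppm1k and the genes of the lower 2 rows are lower in all of them, and Pdp1 and Bckdk overlap.

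Other mitochondrial genes and markers of some other cells moved with the same split of samples. In the averaged comparison 29 of 33 genes of the respiratory chain were called lower (median -0.39), as were 16 of 17 genes of fatty acid oxidation (median -0.77) and 20 of 35 genes of the mitochondrial ribosome (1 higher, median -0.40). Among all genes tested, 13.6% were called lower and 22.3% higher. Of 12 cardiomyocyte markers 5 were called lower and 0 higher, with a median of -0.17. Their mean level was 15.93 to 16.18 in wild-type hearts and 15.77 to 15.91 in dnCREB hearts. Of 9 fibroblast markers 8 were called higher, with mean levels of 11.02 to 11.44 in wild type and 12.12 to 13.56 in dnCREB. All 11 macrophage markers were called higher, with mean levels of 8.06 to 10.13 and 9.64 to 10.60. Of 7 endothelium markers 1 was called higher and 6 were not called (median 0.33). The 3 fast skeletal muscle markers and the 2 adipocyte markers tested had 1 higher and 1 lower in each list. The part of these shifts in the values of the 33 genes was not tested.

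No member passed the test between PM and PBS in heart. In wild-type hearts 0 members were called (0.01% of all genes), in dnCREB hearts 0 (0.0%) and averaged over the genotypes 0 (0.0%), all by limma. At an unadjusted p under 0.05 the counts of members were 0, 1 and 0, beside 1.47%, 4.92% and 1.86% of all genes. The 1 gene was Sucla2 in dnCREB, which read 14.86, 14.73 and 14.74 with PBS and 14.54, 14.52 and 14.58 with PM, a difference of -0.23 (95% interval -0.44 to -0.03, adjusted p = 0.966). Averaged over the genotypes, the smallest p belonged to Dld (-0.12, 95% interval -0.30 to 0.07), Bckdhb (0.12, -0.12 to 0.36) and Pdhx (-0.13, -0.39 to 0.14). The median of the members was -0.01, with values from -0.31 to 0.12.

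In lung, 0 members were called between the genotypes: 0 under PBS (0.0259% of all genes), 0 under PM (0.0%) and 0 averaged (0.00862%). The unadjusted p was under 0.05 for 0 members in each of these, and for 5.42%, 3.97% and 4.85% of all genes. The averaged differences ran from -0.35 to 0.18, with a median of 0.02 (all genes -0.03). Bckdhb, the member with the largest difference in heart, read 8.78, 8.97 and 8.82 in wild-type PBS lungs, 8.69, 9.25 and 8.95 in wild-type PM, 9.39, 8.93 and 8.78 in dnCREB PBS, and 8.84, 8.86 and 8.35 in dnCREB PM. The genotypes overlapped, and the averaged difference was -0.05 (95% interval -0.39 to 0.29, adjusted p = 0.982).

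The genotype change itself was then compared between the tissues. It was lower in heart than in lung for 20 of 33 members and higher for 0 (limma over 24 arrays), against 5.2% of all genes lower, with a median of -0.59 (all genes 0.07). This held for 8 of 9 branched-chain genes, 9 of 12 TCA cycle genes, 2 of 6 genes of pyruvate entry, 1 of 3 ketone genes and 0 of 3 shuttle genes. The 9 members called in heart but not in this difference were Bdh1, Dlat, Dlst, Got1, Got2, Mdh2, Mpc1, Ogdh and Pdhb. Sex-chromosome class was assigned in heart only, and its part in the difference between the tissues was not tested.

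With PM in lung, 0 members were called in wild type (2.39% of all genes), in dnCREB (0.00862%) and averaged over the genotypes (6.76%), and the interaction called 0 (0.00862%). At an unadjusted p under 0.05 the counts were 1, 4, 7 and 1, or 3.03%, 12.1%, 21.2% and 3.03% of the members, beside 26.3%, 9.72%, 27.8% and 5.22% of all genes. Idh3a, the catalytic subunit of the NAD-linked isocitrate dehydrogenase, came nearest. It read 10.33, 10.14 and 10.26 in wild-type PBS lungs, 10.03, 9.61 and 9.92 in wild-type PM, 11.04, 10.41 and 10.25 in dnCREB PBS, and 9.70, 9.85 and 10.11 in dnCREB PM. All 6 PM lungs lay below all 6 PBS lungs, as they did in 2 members and 1.59% of all genes, and the averaged difference was -0.53 ± 0.15 (SE, adjusted p = 0.0562). With PM, 5 of 11 macrophage markers were called higher (median 0.84) and 1 of 11 cardiomyocyte markers lower (median -0.74). The 9 fast skeletal muscle markers had a median of 1.34 and the 9 tested lung epithelium markers one of 0.03, with 0 called in either list. The part of these markers in the members' values was not tested. Next were Acat1 (-0.38, adjusted p = 0.0787) and Pdha1 (-0.34, adjusted p = 0.126). Among related genes, Aco1, the cytosolic aconitase that also acts as an iron regulatory protein, rose by 0.68 with PM averaged over the genotypes (adjusted p = 0.0229) and by 0.88 in wild type (adjusted p = 0.0476), and Pdp2, a phosphatase of pyruvate dehydrogenase, rose by 0.72 averaged over the genotypes (adjusted p = 0.0489). These were named after their values were seen.

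With the skeletal muscle level in the fit, 0 members were called in each lung comparison, as before. Leaving out the 5 arrays left a single array in wild-type PM and in dnCREB PBS. A count from so few arrays cannot decide whether the result depends on muscle RNA, so it is not given. The mean level of the step groups on single arrays did vary. For the TCA cycle it was 10.94 in dnCREB PBS replicate 1, one of the 5 arrays. In the other 11, which include the remaining muscle-high arrays, it was 10.48 to 10.75. The array of dnCREB PBS replicate 1 also had the highest mean levels of cardiomyocyte markers (11.36) and adipocyte markers (9.04) among the lungs. The part of these markers was not tested.

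**Figure D4:**
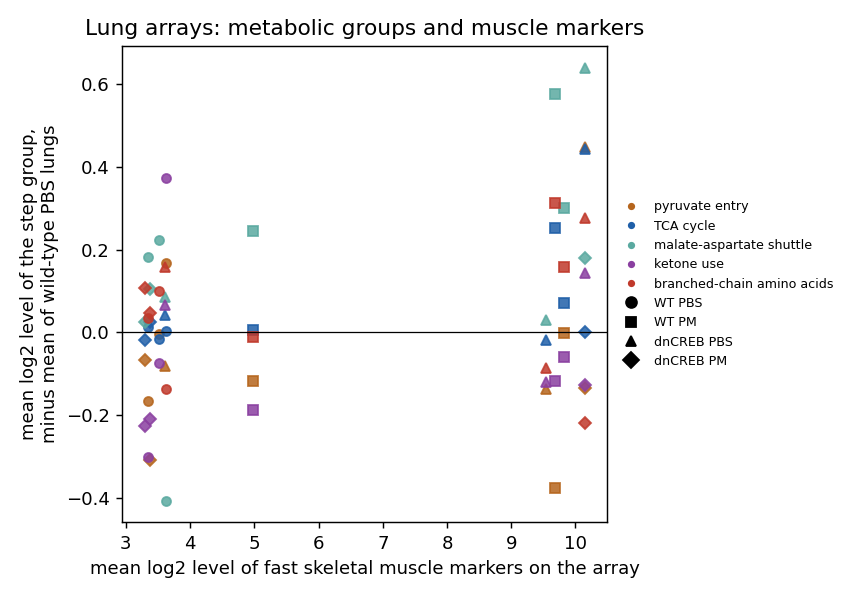
Mean log2 level of each step group on each lung array, less the mean of the 3 wild-type PBS lungs (vertical), against the mean log2 level of fast skeletal muscle markers on the same array (horizontal). Colours mark the step group and symbols the sample group; the 5 arrays at 9.55 to 10.15 on the right are those high in muscle genes, and dnCREB PBS replicate 1 holds the highest single value of the plot, that of the malate-aspartate shuttle.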

How the data were processed

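The deposited log2 expression values per probe set were made by the authors with GCRMA (version not given in the sources used here), per the submitters' processing notes. GCRMA corrects background by probe sequence, normalizes between arrays and summarises probe sets. Array medians of 3.25 to 3.37 in heart and 4.09 to 4.19 in lung show separate scales, so levels were not compared between tissues. Of 45037 probe sets, 34945 had 1 gene symbol, 932 several and 9160 none. Each gene was represented by its probe set of highest mean over 24 arrays and tested where at least 3 arrays of a tissue exceeded 4. Arrays give no counts, and their number limits precision.

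Each tissue was fitted with limma 3.58.1 (R 4.3.3) as 4 group means, with Benjamini-Hochberg adjustment over all genes tested and a threshold of 0.05. The tissue difference used 12318 genes and 24 arrays, taken as independent samples. The code was tested on simulated data. Differences are log2, with standard errors (SE) and 95% intervals from limma. Tables were made with pandas 2.3.3. Promoters come from RefSeq (GRCm38.p6).

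Values per array are given for members called in heart with the largest averaged change, up to 3 per step, and up to 4 genes per related list by smallest p. Where no member was called, the 3 smallest p are given, or values for the nearest. Values of Bcat2, and of Bckdhb in lung, were added after being seen. The members and lists were chosen with earlier results of these data known. Alternatives were all probe sets, their mean, other filters, normalizations and variance models, the sex-chromosome class, the muscle level, a replicate block and leaving out each array.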

Additional observations from a re-analysis of the deposited data

Results flagged for a closer look

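The genotype difference (dnCREB minus wild type, averaged over PBS and PM) was lower in heart than in lung for 20 genes, by limma with an adjusted p under 0.05 for the difference between the tissues. In the branched-chain group these differences were -1.73 for Dbt, -1.57 for Bckdhb, -1.36 for Mccc2, -1.15 for Ivd, -1.13 for Pcca, -1.11 for Mccc1, -0.91 for Pccb and -0.73 for Bckdha. In the TCA cycle they were -1.17 for Suclg2, -0.74 for Suclg1, -0.73 for Idh2, -0.63 for Idh3a, -0.61 for Sucla2, -0.59 for Cs, -0.54 for Fh1, -0.46 for Idh3g and -0.41 for Idh3b. Dld and Pdha1 of pyruvate entry gave -0.98 and -0.60, and Acat1 gave -0.94. Of the alternatives tried, 7 of 27 kept the call of Idh3g, 9 of 27 that of Idh3b and 10 of 27 that of Bckdha, and each of the other 17 genes kept its call in at least 15 of 27. In heart the genotypes also differ in sex-chromosome class in 5 of 6 dnCREB hearts, and its part in these differences was not tested. The class was not assigned for the lung arrays.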

How the results depend on the processing

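With the sex-chromosome class in the fit, the members called lower in heart fell to 4 under PBS, 14 under PM and 12 averaged; the estimate then rests on 1 dnCREB heart. In lung, PM averaged over the genotypes called 1 member with the mean of probe sets, 2 with arrays centred on the genes tested (added after seeing the data) and 3 with array weights, and array weights called 5 with PM in dnCREB; the cause was not tested. Leaving out 1 array gave 11 to 19 members under PBS (11 without dnCREB PBS replicate 3, 12 without wild-type PBS replicate 2), 19 to 25 under PM, 28 to 29 averaged, 0 to 1 for PM in lung averaged (1 without wild-type PM replicate 1) and 15 to 21 for heart minus lung. Quantile normalization moved the median of all genes under PBS from 0.09 to -0.03 and centring on the genes tested to -0.13, with 20 and 26 members lower. No called member changed sign. Within a tissue, same-numbered samples of different groups correlated in their deviations at -0.33 to 0.33, so the numbers were not taken as pairs there. Heart and lung of one number were not compared in this way, and heart minus lung treated the 24 arrays as independent. With the replicate block 19, 24 and 28 members were lower in heart, 20 in heart minus lung and 0 in the other comparisons.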
